A study of Homo sapiens with 12 samples.

Results

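The clustered histone genes of DU145 prostate cancer cells were examined by class, as every gene of the deposited count table whose symbol begins with HIST1H, HIST2H, HIST3H or HIST4H. There were 73 such genes among 26341 in the table. They comprised 6 genes for the linker histone H1, 18 for H2A, 20 for H2B, 14 for H3 and 15 for H4. The HIST1 cluster on chromosome 6 held 56 of them, the HIST2 and HIST3 clusters on chromosome 1 held 13 and 3, and the HIST4 locus on chromosome 12 held 1.

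RNA was sequenced from 12 libraries, 3 in each of 4 groups. DU145 is an established line from a brain metastasis of a prostate carcinoma. DACTPL cells had received triptolide and decitabine, DAC cells decitabine at 33 nM, TPL cells triptolide at 2 nM, and Ctrl cells the DMSO vehicle. Drugs were given once daily on 3 days and the cells then grew without drug for 17 days before RNA was taken. The combination contained 2 nM triptolide, and its decitabine dose is labelled 33 nM in one place and 3 nM in another, so any difference between DACTPL and DAC cells may include a difference in dose. Decitabine is a cytidine analogue that traps DNA methyltransferases and lowers DNA methylation in dividing cells. Triptolide is a diterpenoid that binds the XPB subunit of the general transcription factor TFIIH and blocks transcription. The labels do not say that the 3 libraries of a group came from separate cultures, so p-values measure the spread between these libraries, which may be technical.

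Most histone protein is made from these genes while DNA is being copied. Their transcripts have no introns and, in place of a poly(A) tail, end in a short stem-loop that is bound by the stem-loop binding protein SLBP and is cut by a dedicated processing complex. H2A, H2B, H3 and H4 form the nucleosome core, and H1 binds the DNA that enters and leaves it. A few cluster genes are used mainly in the male germline. Others can also yield polyadenylated transcripts in cells that have stopped dividing. The libraries were made from total RNA and not from poly(A)-selected RNA, so transcripts without a tail were not selected against.

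The stem-loops of 3 members are shown because they are the feature by which a cell recognises this class of transcript. Capitals mark the stem-loop, the stem being the 6 outer bases on either side of a 4-base loop.
HIST1H4E: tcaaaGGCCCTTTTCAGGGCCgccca
HIST1H4I: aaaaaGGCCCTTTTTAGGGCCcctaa
HIST1H2BE: ccaaaGGCTCTTTTCAGAGCCa
A stem-loop of this kind was found in a GENCODE v29 transcript of 33 of the 73 members, in 6 different sequences, against 0.0547% of all 206694 transcripts. The sequence of HIST1H4E was shared by 5 H4 genes, and that of HIST1H2BE by 17 members, none of them an H4 gene. Of the 40 members without one, 37 have an annotated transcript whose length is a multiple of 3, as a model that stops at the coding sequence would have. No match therefore says nothing about the transcript itself.

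The 250 bases before the annotated start of 6 genes are shown because these genes had the larger changes of their classes, or, for HIST1H1C, because it is the most abundant H1 gene. Sequences are from RefSeq (GRCh38.p14) and run 5′ to 3′ on the strand of the gene. Capitals mark, on either strand, the CCAAT element, the TATAAA form of the TATA box, the H1 box spelled AAACACA and the part of the octamer spelled TTTGCAT.
HIST1H1A (chr6:26017788-26018037, minus strand): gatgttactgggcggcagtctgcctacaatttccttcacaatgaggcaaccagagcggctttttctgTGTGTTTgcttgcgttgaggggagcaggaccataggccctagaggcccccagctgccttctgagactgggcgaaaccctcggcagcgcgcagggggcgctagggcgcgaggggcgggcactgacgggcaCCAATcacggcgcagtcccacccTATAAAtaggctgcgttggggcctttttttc
HIST1H1T (chr6:26108136-26108385, minus strand): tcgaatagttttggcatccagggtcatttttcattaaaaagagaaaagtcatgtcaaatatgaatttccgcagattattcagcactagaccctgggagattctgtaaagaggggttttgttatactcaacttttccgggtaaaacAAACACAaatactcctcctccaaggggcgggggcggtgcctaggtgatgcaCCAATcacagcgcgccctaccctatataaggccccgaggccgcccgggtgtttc
HIST1H1C (chr6:26056471-26056720, minus strand): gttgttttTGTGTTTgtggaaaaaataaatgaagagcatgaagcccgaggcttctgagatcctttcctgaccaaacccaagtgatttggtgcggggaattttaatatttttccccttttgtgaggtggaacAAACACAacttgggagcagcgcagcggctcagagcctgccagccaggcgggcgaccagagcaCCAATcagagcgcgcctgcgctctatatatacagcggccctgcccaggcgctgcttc
HIST1H4E (chr6:26204360-26204609, plus strand): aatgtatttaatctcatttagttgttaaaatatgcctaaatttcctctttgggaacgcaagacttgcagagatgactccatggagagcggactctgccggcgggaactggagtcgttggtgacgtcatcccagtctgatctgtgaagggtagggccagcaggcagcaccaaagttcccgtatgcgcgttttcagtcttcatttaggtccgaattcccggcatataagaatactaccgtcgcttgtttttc
HIST1H4L (chr6:27873535-27873784, minus strand): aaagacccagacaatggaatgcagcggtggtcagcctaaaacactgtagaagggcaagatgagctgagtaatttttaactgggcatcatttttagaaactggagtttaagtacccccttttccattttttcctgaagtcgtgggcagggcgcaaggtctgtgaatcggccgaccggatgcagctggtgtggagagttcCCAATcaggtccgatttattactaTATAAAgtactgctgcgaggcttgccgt
HIST1H2BM (chr6:27814772-27815021, plus strand): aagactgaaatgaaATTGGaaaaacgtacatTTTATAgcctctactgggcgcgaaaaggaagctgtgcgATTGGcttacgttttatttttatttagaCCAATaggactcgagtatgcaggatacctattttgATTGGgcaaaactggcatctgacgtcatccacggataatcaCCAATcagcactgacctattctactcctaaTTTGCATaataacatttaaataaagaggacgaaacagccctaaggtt
Promoters were matched for 65 of the 73 members, and the windows of 23 overlap that of another member. Every one of the 6 H1 promoters carried AAACACA, which occurred in no other member and in 4.95% of 27305 promoters genome-wide. TTTGCAT was found in 11 of 16 H2A and 14 of 18 H2B promoters, in 1 of 12 H3 promoters and in no H1 or H4 promoter, against 3.98% of all promoters. CCAAT was present in every H1, H2A, H2B and H3 promoter matched but in 3 of 13 H4 promoters, against 33.0% overall. TATAAA was present in 66.2% of members and in 11.1% of all promoters. The promoter of HIST1H4E held none of the 4 motifs, and that of HIST1H4L held CCAAT and TATAAA. A match is a string of letters in a window and not a measured binding site.

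Library totals were 26.4 to 47.0 M expected counts, and members took up 0.476% to 0.639% of them. All 5 keratin and epithelial adhesion markers examined were detected in every group. Levels are given as CPM, read counts scaled to library size, and levels between genes as TPM, which also divides by transcript length. The summed level of 6 blood cell markers was 30.2 to 31.7 CPM in DACTPL cells, 29.3 to 31.4 CPM in DAC cells, 35.8 to 46.2 CPM in TPL cells and 38.8 to 42.5 CPM in Ctrl cells, with HBB at 0 in each group. The summed level of 6 stromal markers was 13.0 to 14.7 CPM in DACTPL cells, 8.17 to 12.4 CPM in DAC cells, 8.01 to 12.02 CPM in TPL cells and 8.32 to 10.9 CPM in Ctrl cells, with LUM at 0 in TPL and LUM and DCN at 0 in Ctrl cells. The part of these cell markers in the histone differences was not tested. In bulk RNA, fewer cells in S phase and less histone RNA per cell cannot be told apart. TPL replicate 3 stood apart from the other 2 TPL libraries, and results that rest on it are given with and without it.

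Members with few reads, meaning rounded expected counts, showed the widest differences between the groups. HIST1H1A, which encodes a linker histone, had 25, 27 and 22 reads in DACTPL cells, 18, 21 and 18 in DAC cells, 0, 0 and 0 in TPL cells and 2, 0 and 2 in Ctrl cells. HIST1H4E, one of the genes for H4, had 29, 23 and 19 reads in DACTPL cells, 24, 20 and 17 in DAC cells, 1, 2 and 0 in TPL cells and 1, 1 and 2 in Ctrl cells. For both genes, each decitabine-treated library, with or without triptolide, held at least 17 reads, and no other library held more than 2. Both passed the filter on low counts only through the decitabine-treated libraries, so their fold changes against Ctrl cells are given with no test. The log2 fold changes were 4.24 ± 0.47 (SE) in DACTPL cells and 3.74 ± 0.50 in DAC cells for HIST1H1A, and 4.16 ± 0.45 and 3.84 ± 0.46 for HIST1H4E. Against TPL cells, HIST1H1A was at least 6.77-fold higher in DACTPL cells, taking 3 reads per library as the floor for the TPL libraries, which had none. For HIST1H4E the ratio of DACTPL to TPL cells was 19.2, with a 95% counting interval of 6.32 to 95.5 from reads summed over libraries. That interval leaves out the spread between libraries. The values of HIST1H1A and HIST1H4E against TPL cells are likewise a description and not a test. Both fell below the level set for naming genes and were chosen after their values were seen.

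HIST1H1T encodes the linker histone of spermatocytes. Its levels were 1.73, 1.49 and 1.63 CPM in DACTPL cells, 1.502, 1.47 and 1.499 CPM in DAC cells, 0.310, 0.166 and 0.460 CPM in TPL cells and 0.278, 0.201 and 0.397 CPM in Ctrl cells. The 6 decitabine-treated libraries all lay above the other 6. It also passed the filter only through those libraries, and its fold changes are a description. The log2 fold change was 2.41 ± 0.26 (SE) in DACTPL and 2.28 ± 0.26 in DAC cells against Ctrl cells, and 2.36 ± 0.28 in DACTPL against TPL cells. TPL and Ctrl libraries overlapped, with a log2 fold change of 0.04 ± 0.35. The other 3 germline members were not tested because of low counts. HIST1H2BA, the testis H2B, had 6, 3 and 3 reads in DACTPL cells, 9, 2 and 4 in DAC cells, 0, 0 and 1 in TPL cells and 0, 0 and 0 in Ctrl cells. HIST1H2AA, the testis H2A that neighbours it, had 2, 0 and 0 reads in DACTPL cells, 3, 3 and 3 in DAC cells, 0, 0 and 0 in TPL cells and 0, 0 and 0 in Ctrl cells. HIST3H3, the testis H3, had 0, 1 and 2 reads in DACTPL cells, 0, 0 and 0 in DAC cells, 1, 0 and 0 in TPL cells and 0, 0 and 0 in Ctrl cells. HIST1H2BA and HIST1H2AA were thus read in each of the 3 DAC libraries, and in Ctrl not at all.

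The other 8 untested members comprised HIST1H2APS1, which had no read in any library, and 7 with a few. Summed over all 11 untested members, the libraries held 41, 15 and 16 reads in DACTPL cells, 28, 25 and 24 in DAC cells, 6, 10 and 4 in TPL cells, and 5, 3 and 6 in Ctrl cells. Every decitabine-treated library exceeded every other. Members without a single read numbered 4 in each DACTPL library, 3 or 4 in DAC libraries, 7 to 10 in TPL libraries and 9 or 10 in Ctrl libraries. HIST1H3C, an H3 gene, had 9, 1 and 3 reads in DACTPL cells, 4, 2 and 5 in DAC cells, 0, 1 and 0 in TPL cells and 0, 0 and 0 in Ctrl cells. HIST1H4F, an H4 gene, had 4, 1 and 1 reads in DACTPL cells, 3, 5 and 2 in DAC cells, 0, 1 and 0 in TPL cells and 0, 0 and 0 in Ctrl cells. No Ctrl library held a read of either. Both were chosen after their values were seen. HIST1H2BB, an untested H2B gene, had 8, 2 and 4 reads in DACTPL cells, 4, 4 and 4 in DAC cells, 4, 4 and 2 in TPL cells and 3, 2 and 6 in Ctrl cells. Its groups overlapped.

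**Figure D1:**
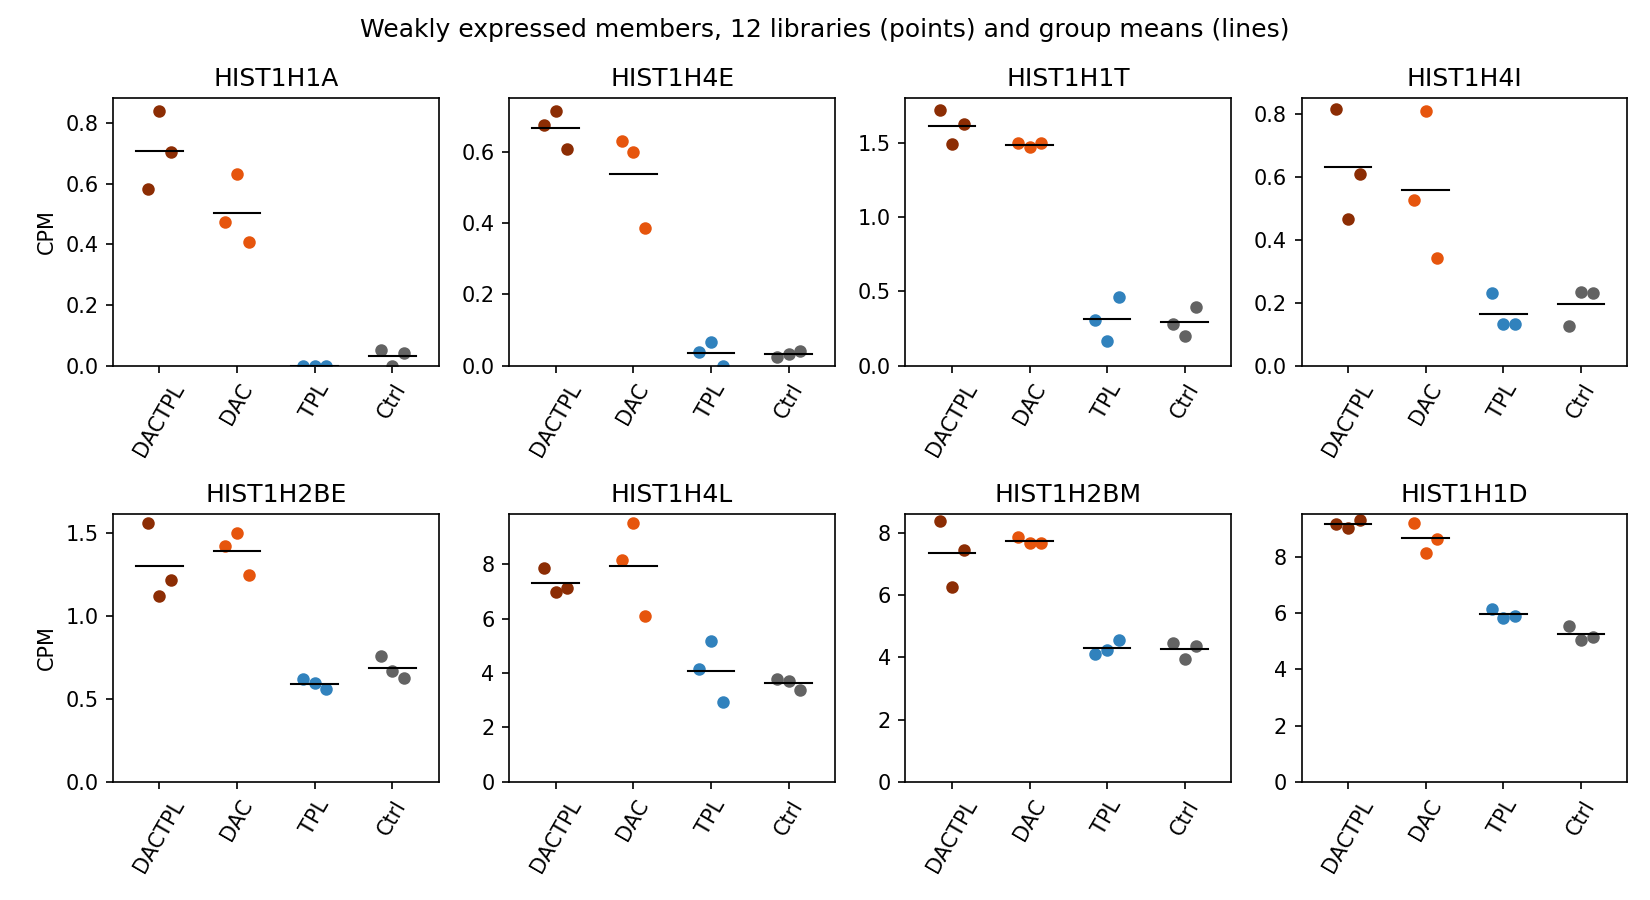
Level in CPM (y axis, linear from 0) of 8 members with low read counts in each of the 12 libraries (points) with group means (lines). The 8 were chosen after their values were seen. HIST1H3J, HIST2H2BA, HIST2H2BC, HIST3H2A and HIST3H2BB, also tested and below 10 CPM on average, are not shown. Of tested members, 5 of 7 below 1 CPM and 3 of 6 at 1 to 10 CPM had every DACTPL library above every TPL library. For HIST1H1A, HIST1H4E, HIST1H1T, HIST1H4I, HIST1H2BE, HIST1H4L, HIST1H2BM and HIST1H1D, all DACTPL and DAC libraries lie above all TPL and Ctrl libraries.

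Some members of each class passed the threshold in DAC cells, and all of those were higher. Of the 73 members, 62 had enough reads to be tested, and 28 of these were higher in DAC than in Ctrl cells and none lower at an adjusted p below 0.05 (edgeR quasi-likelihood test, Benjamini-Hochberg adjustment over all 15890 genes tested). Among all genes tested, 6.27% were higher and 3.59% lower. Fold changes of the 62 ranged from -0.07 to 3.84 on the log2 scale with a median of 0.36, beside 0.01 for all genes, and 61 were above 0. In 56 of the 62, every DAC library lay above every Ctrl library, against 18.1% of all genes tested. Called members fell to 14 without Ctrl replicate 1 or without DAC replicate 2. Calls over all genes fell too, from 1566 of 15890 to 753 of 16054 and 779 of 16052. Whichever library was left out, 13 members were called, HIST1H1A, HIST1H1T and HIST1H4E among them. Without HIST1H1A, HIST1H1T, HIST1H3J, HIST1H4E and HIST1H4I, the 5 members that passed the filter only through decitabine-treated libraries, 24 of 57 were called, with a median of 0.35. No HIST3 or HIST4 gene was among the calls. Identical rows, which 3 pairs of gene copies share, counted once, gave 27 of 59.

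DACTPL cells were set against the same 3 Ctrl libraries as decitabine alone, so these comparisons are not independent. In DACTPL cells 23 of 62 members were higher than in Ctrl cells and none lower, beside 8.64% higher and 4.83% lower among all genes. The median log2 fold change was 0.27, with a range of -0.02 to 4.24, beside 0.01 for all genes. Groups did not overlap in 44 members, all higher, against 19.2% of all genes. Without those 5 members, 19 of 57 were called. Leaving out 1 library gave 17 to 22 calls, beside 1146 to 2339 over all genes, where the full fit gave 2141. In every such fit 17 members were called, HIST1H1A, HIST1H1T and HIST1H4E among them.

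Decitabine could also be assessed on a triptolide background with libraries that the DAC and Ctrl comparison did not use. In DACTPL against TPL cells 10 of 62 members were higher and none lower, beside 6.93% higher and 3.59% lower among all genes. All 10 were also called in DAC against Ctrl cells, where they made up 35.7% of the calls. They were HIST1H1A, HIST1H1D, HIST1H1T, HIST1H2BE, HIST1H2BG, HIST1H2BM, HIST1H3I, HIST1H4E, HIST1H4I and HIST1H4L. Of these, HIST1H1A, HIST1H1T, HIST1H4E and HIST1H4I passed the filter only through decitabine-treated libraries, which leaves 6 of 57. Both comparisons came from 1 fit over all 4 groups, and the matching overlap over all genes was not determined. The overlap of the calls is therefore a description and not a result particular to histone genes. The median over the 62 was only 0.03. The length trend, that of other coding genes at the members' lengths as described below, was -0.16, and 54 members lay above it. Without TPL replicate 3, 10 members were higher and 14 lower, beside 1622 and 1663 of 16080 genes. In 12 members every DACTPL library lay above every TPL library and in 2 below, against 14.9% and 12.2% of all genes. The interaction term, which tests whether the decitabine effect differed with triptolide present, called no member, with 1 gene in all past the threshold (0.00629%). At an unadjusted p below 0.05 it gave 1 member higher and 27 lower, beside 2545 of all 15890 genes in either direction. DESeq2 called 1 member lower, beside 53 genes. Without TPL replicate 3 edgeR called 39 members lower, beside 644 of 16080 genes. The median interaction over the 62 was -0.34, beside a length trend of -0.33. With that trend removed no member was called, beside 3 genes in all.

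The H1 genes had the highest share of calls of the 5 classes. In DAC cells all 6 were higher than in Ctrl cells, with a median log2 fold change of 0.59, and in DACTPL cells 5 of 6 were, with a median of 0.66. Without HIST1H1A and HIST1H1T the calls were 3 of 4 in DACTPL cells and 4 of 4 in DAC cells, and the medians 0.38 and 0.36, the second no longer above that of the H3 genes (0.364 without HIST1H3J). HIST1H1D, a somatic H1 gene, had 9.17, 9.03 and 9.31 CPM in DACTPL cells, 9.22, 8.14 and 8.66 CPM in DAC cells, 6.15, 5.81 and 5.91 CPM in TPL cells and 5.56, 5.05 and 5.16 CPM in Ctrl cells. All decitabine-treated libraries lay above all others by more than the spread within groups. On the log2 scale HIST1H1D was higher than in Ctrl cells by 0.80 ± 0.08 (SE) in DACTPL cells and by 0.72 ± 0.08 in DAC cells (edgeR adjusted p = 2.01e-05 and 6.23e-05). It was also higher in DACTPL than in TPL cells (0.62 ± 0.08, adjusted p = 0.000239).

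HIST1H1C, which gave the highest H1 level per length, had 579.6, 543 and 561 CPM in DACTPL cells, 578, 575 and 560.0 CPM in DAC cells, 554, 588 and 534 CPM in TPL cells and 463, 463 and 497 CPM in Ctrl cells. The Ctrl libraries were the 3 lowest of the 12. Against Ctrl cells, HIST1H1C was higher by 0.24 ± 0.06 (SE, log2) in DACTPL cells and by 0.27 ± 0.06 in DAC cells (edgeR adjusted p = 0.0123 and 0.00927). HIST1H1B, another somatic H1 gene, averaged 261 ± 11.7 CPM in DACTPL cells, 248 ± 14.6 in DAC cells, 260.1 ± 44.4 in TPL cells and 181 ± 4.71 in Ctrl cells (SD, n = 3 each). Its log2 fold change was 0.52 ± 0.10 in TPL cells, 0.52 ± 0.10 in DACTPL cells and 0.45 ± 0.10 in DAC cells (adjusted p = 0.023, 0.00398 and 0.0123, edgeR). HIST1H1E was at the threshold, at 0.25 ± 0.07 in DAC cells (adjusted p = 0.0497) and 0.22 ± 0.07 in DACTPL cells (adjusted p = 0.0681). The DACTPL call of HIST1H1C was lost without Ctrl replicate 1 or 2 or DACTPL replicate 1, with adjusted p up to 0.0677. The DAC calls of HIST1H1E were lost without any 1 of the 6 libraries, those of HIST1H1C without Ctrl replicate 1 or 2, and those of HIST1H1B without Ctrl replicate 2 or DAC replicate 2, with adjusted p up to 0.184, 0.0545 and 0.0592.

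**Figure D2:**
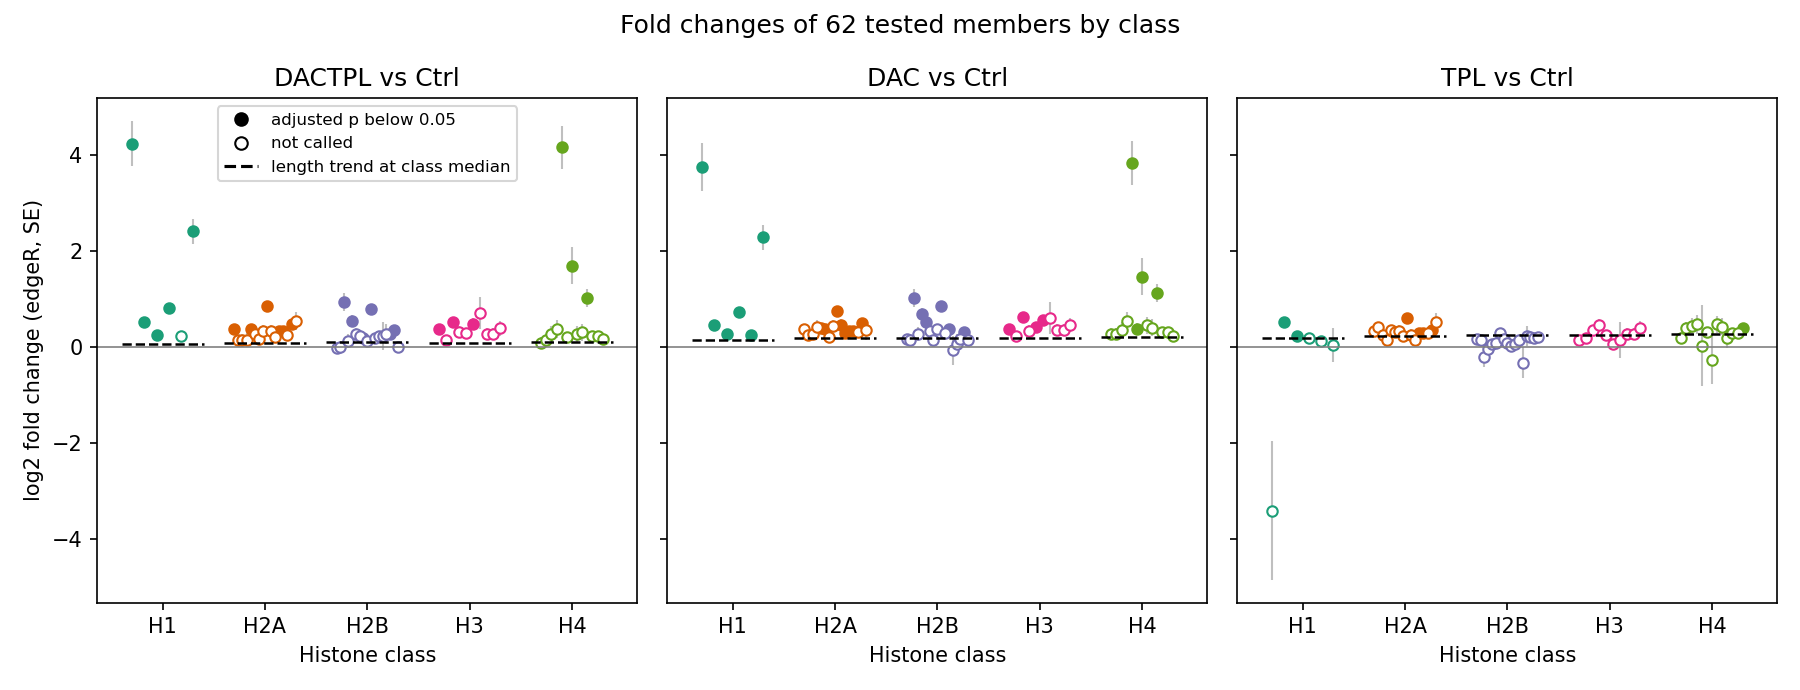
Log2 fold change with its standard error (y axis) of the 62 tested members, by histone class (x axis), in DACTPL, DAC and TPL cells against Ctrl cells; filled points passed an adjusted p of 0.05 and dashed lines give the length trend of other coding genes. Filled points number 23, 28 and 7, and the lowest point in the TPL panel, HIST1H1A, rests on 0 reads against 4.

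Among H2A genes, 8 of 16 tested were higher in DAC cells and 6 of 16 in DACTPL cells, with medians of 0.36 and 0.33. HIST1H2AK had 16.8, 15.7 and 14.3 CPM in DACTPL cells, 14.5, 15.5 and 13.8 CPM in DAC cells, 14.8, 13.3 and 11.3 CPM in TPL cells and 8.06, 8.77 and 9.20 CPM in Ctrl cells. Every treated library of all 3 drug groups lay above the Ctrl libraries. HIST1H2AK differed from Ctrl by a log2 fold change of 0.85 ± 0.10 (SE) in DACTPL cells and 0.75 ± 0.10 in DAC cells (edgeR adjusted p = 0.000136 and 0.00049). It was also called in TPL cells, at 0.59 ± 0.10 (adjusted p = 0.0173). HIST2H2AC had 149.6, 134 and 130.4 CPM in DACTPL cells, 140.1, 143 and 138 CPM in DAC cells, 135, 129 and 114 CPM in TPL cells and 97.2, 98.0 and 104 CPM in Ctrl cells, again with the Ctrl libraries lowest. On the log2 scale HIST2H2AC was higher than in Ctrl cells by 0.47 ± 0.07 (SE) in DACTPL cells and by 0.49 ± 0.07 in DAC cells (edgeR adjusted p = 0.00069 and 0.000652). The most abundant H2A genes, HIST2H2AA3 and HIST2H2AA4, are 2 copies with the same expected counts in every library, so their values are 1 measurement. Each had 302, 294 and 278 CPM in DACTPL cells, 282, 309.9 and 281 CPM in DAC cells, 305, 293 and 256 CPM in TPL cells and 223, 229.6 and 242 CPM in Ctrl cells. Their log2 fold change was 0.33 ± 0.07 in DACTPL cells and 0.33 ± 0.07 in DAC cells (edgeR adjusted p = 0.0078 and 0.0105). The DAC call of HIST2H2AA3 was lost without Ctrl replicate 1 or DAC replicate 2 (adjusted p up to 0.0613). In the deposited TPM the copies part: HIST2H2AA3 had 787, 843 and 812 TPM in TPL cells and 734, 804 and 811 TPM in Ctrl cells, while HIST2H2AA4 had 786, 656 and 639 TPM in TPL cells and 829, 780.1 and 844 TPM in Ctrl cells, so the level of either copy alone is uncertain.

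H2B genes ranged widely. In DAC cells 6 of 17 tested were higher than in Ctrl cells, with a median of 0.28, and in DACTPL cells 6 of 17, with a median of 0.23. HIST1H2BE had 1.56, 1.12 and 1.22 CPM in DACTPL cells, 1.42, 1.501 and 1.2495 CPM in DAC cells, 0.619, 0.598 and 0.559 CPM in TPL cells and 0.758, 0.669 and 0.627 CPM in Ctrl cells. HIST1H2BM had 8.38, 6.26 and 7.46 CPM in DACTPL cells, 7.85, 7.69 and 7.68 CPM in DAC cells, 4.10, 4.22 and 4.57 CPM in TPL cells and 4.47, 3.95 and 4.37 CPM in Ctrl cells. In both, the 6 decitabine-treated libraries lay above the other 6. Against Ctrl cells, HIST1H2BE was higher by 0.94 ± 0.18 (SE, log2) in DACTPL cells and by 1.02 ± 0.18 in DAC cells (edgeR adjusted p = 0.00476 and 0.00345). HIST1H2BM differed from Ctrl by a log2 fold change of 0.79 ± 0.11 (SE) in DACTPL cells and 0.85 ± 0.11 in DAC cells (edgeR adjusted p = 0.000359 and 0.000232). They were also higher in DACTPL than in TPL cells, at 1.15 ± 0.20 and 0.78 ± 0.11 (adjusted p = 0.00249 and 0.000572). HIST1H2BG was chosen after its values were seen. It averaged 20.3 ± 2.20 CPM in DACTPL cells, 22.5 ± 1.92 in DAC cells, 14.5 ± 2.20 in TPL cells and 13.99 ± 1.05 in Ctrl cells (SD, n = 3 each). On the log2 scale HIST1H2BG was higher than in Ctrl cells by 0.54 ± 0.11 (SE) in DACTPL cells and by 0.69 ± 0.11 in DAC cells (edgeR adjusted p = 0.00723 and 0.002).

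The H2B genes with the most reads differed less. HIST2H2BE, the member with the greatest effective length, had 354, 333 and 338 CPM in DACTPL cells, 294, 330.1 and 331 CPM in DAC cells, 319, 319 and 342 CPM in TPL cells and 270.1, 289 and 295 CPM in Ctrl cells. Its fold change was 0.26 ± 0.06 in DACTPL cells (adjusted p = 0.0131) and 0.16 ± 0.06 in DAC cells (adjusted p = 0.117). HIST1H2BK averaged 315 ± 17.0 CPM in DACTPL cells, 307 ± 8.04 in DAC cells, 311 ± 3.28 in TPL cells and 277 ± 6.32 in Ctrl cells (SD, n = 3 each), with fold changes of 0.19 ± 0.05 and 0.15 ± 0.05 (adjusted p = 0.0325 and 0.0923) in DACTPL and DAC cells. The DACTPL call of HIST2H2BE was lost without Ctrl replicate 1 or DACTPL replicate 1 (adjusted p up to 0.0769), and that of HIST1H2BK also without Ctrl replicate 2 or DACTPL replicate 3, with the highest adjusted p at 0.161.

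Among H3 genes, 4 of 10 tested were higher in DAC cells and 3 of 10 in DACTPL cells, with medians of 0.39 and 0.33. HIST1H3D had 27.7, 25.2 and 22.3 CPM in DACTPL cells, 24.9, 29.6 and 26.2 CPM in DAC cells, 23.7, 23.9 and 20.0 CPM in TPL cells and 17.3, 17.3 and 18.2 CPM in Ctrl cells. Its Ctrl libraries were the 3 lowest of the 12. Against Ctrl cells, HIST1H3D was higher by 0.51 ± 0.10 (SE, log2) in DACTPL cells and by 0.61 ± 0.10 in DAC cells (edgeR adjusted p = 0.00365 and 0.0014). HIST1H3I had 12.3, 12.5 and 10.8 CPM in DACTPL cells, 11.7, 13.9 and 11.8 CPM in DAC cells, 8.40, 9.90 and 7.98 CPM in TPL cells and 9.30, 7.83 and 8.23 CPM in Ctrl cells, with all decitabine-treated libraries above the rest. HIST1H3I differed from Ctrl by a log2 fold change of 0.49 ± 0.11 (SE) in DACTPL cells and 0.56 ± 0.10 in DAC cells (edgeR adjusted p = 0.00856 and 0.00479). The identical copies HIST2H3A and HIST2H3C, highest of the H3 genes, averaged 172 ± 13.2 CPM in DACTPL cells, 183 ± 20.9 in DAC cells, 172 ± 34.0 in TPL cells and 143 ± 10.6 in Ctrl cells (SD, n = 3 each). Their values were not called, at 0.27 ± 0.13 in DACTPL cells and 0.35 ± 0.13 in DAC cells (adjusted p = 0.209 and 0.112, edgeR).

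Of the H4 genes, 4 of 13 tested were higher in DAC cells and 3 of 13 in DACTPL cells, with medians of 0.38 and 0.26. HIST1H4L had 7.86, 6.97 and 7.14 CPM in DACTPL cells, 8.17, 9.52 and 6.09 CPM in DAC cells, 4.14, 5.18 and 2.92 CPM in TPL cells and 3.77, 3.71 and 3.39 CPM in Ctrl cells. On the log2 scale HIST1H4L was higher than in Ctrl cells by 1.02 ± 0.19 (SE) in DACTPL cells and by 1.13 ± 0.18 in DAC cells (edgeR adjusted p = 0.00323 and 0.00208). HIST1H4I, chosen after its values were seen, had 35, 15 and 19 reads in DACTPL cells, 20, 27 and 15 in DAC cells, 6, 4 and 4 in TPL cells and 5, 7 and 11 in Ctrl cells. It too passed the filter only through the decitabine-treated libraries, and its log2 fold changes against Ctrl cells, 1.69 ± 0.39 (SE) in DACTPL cells and 1.46 ± 0.39 in DAC cells, are a description. Without HIST1H4E and HIST1H4I, 2 of 11 H4 genes were called in DAC cells and 1 of 11 in DACTPL cells. The decitabine-treated libraries of HIST1H4L and HIST1H4I lay above the others. HIST1H4H was 0.38 ± 0.11 in DAC cells (adjusted p = 0.0415), a call lost on leaving out any library but DAC replicate 3, with adjusted p up to 0.141. The H4 copies HIST2H4A and HIST2H4B, with the most H4 reads, averaged 155 ± 7.82 CPM in DACTPL cells, 165 ± 10.5 in DAC cells, 162 ± 24.9 in TPL cells and 133 ± 5.31 in Ctrl cells (SD, n = 3 each) and were not called (0.22 ± 0.09 and 0.32 ± 0.09, adjusted p = 0.142 and 0.0521 in DACTPL and DAC cells).

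The neighbours of 3 members in the HIST1 cluster, given for their position, had values of their own. HIST1H4E is flanked by HIST1H2BF and HIST1H2BG, with means over all libraries of 11.6 and 17.8 CPM of read support, and HIST1H4E itself had 0.319 CPM. Against Ctrl cells, HIST1H2BF had a log2 fold change of 0.12 ± 0.14 in DACTPL and 0.27 ± 0.14 in DAC cells, which were not called. HIST1H2BG was called in both, at 0.54 and 0.69. HIST1H1T lies between HIST1H4C, at 0.27 ± 0.17 and 0.35 ± 0.17 in the same comparisons, and HIST1H2BC, at -0.02 ± 0.09 and 0.16 ± 0.09, and neither neighbour was called. HIST1H1A lies between HIST1H2APS1, without reads, and HIST1H3A, which was called at 0.37 ± 0.07 and 0.36 ± 0.07 (adjusted p = 0.00503 and 0.00677, edgeR).

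Fold changes were then set beside read support. Of 18 members with a mean below 1 CPM over all libraries, 7 could be tested, and their median log2 fold change was 1.69 in DACTPL cells and 1.46 in DAC cells. The 6 members at 1 to 10 CPM had medians of 0.66 and 0.53, the 28 at 10 to 100 CPM 0.27 and 0.37, and the 21 at 100 CPM or more 0.24 and 0.32. All tested genes in the same ranges had medians of 0.12, 0.02, 0.00 and 0.01 in DACTPL cells and of -0.02, -0.04, 0.02 and 0.02 in DAC cells. Of the 7 tested members below 1 CPM, 5 passed the filter only through decitabine-treated libraries, HIST1H2BE and HIST2H2BA being the exceptions, so the median of the lowest range is a description. Of the 49 members at 10 CPM or more, all of which were tested, 15 were called in DACTPL and 20 in DAC cells.

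**Figure D3:**
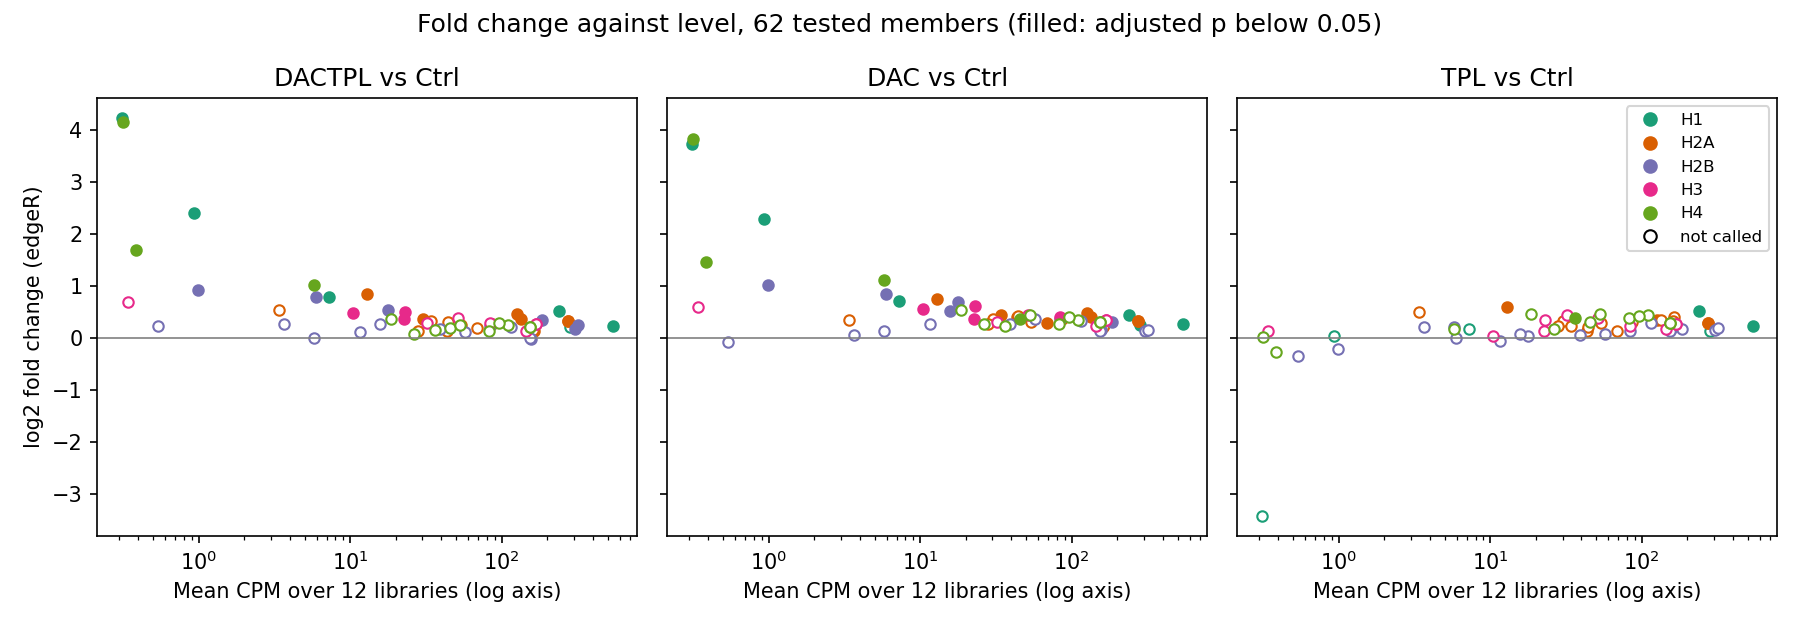
Log2 fold change (y axis) against mean CPM over the 12 libraries (x axis, log scale) for the 62 tested members in DACTPL, DAC and TPL cells against Ctrl cells, coloured by class, with filled points past an adjusted p of 0.05. In the DACTPL and DAC panels the largest fold changes belong to HIST1H1A and HIST1H4E, both below 1 CPM and past the filter only through decitabine-treated libraries, while members at 100 CPM or more had medians of 0.24 and 0.32.

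Summed levels moved less than these single genes. The H1 sum was 1164, 1119 and 1107 CPM in DACTPL cells, 1146, 1159.6 and 1093 CPM in DAC cells, 1128, 1192 and 994 CPM in TPL cells and 909, 912 and 929 CPM in Ctrl cells. The H4 sum was 839.9, 764 and 735 CPM in DACTPL cells, 838, 903 and 789 CPM in DAC cells, 925, 966 and 655 CPM in TPL cells and 663, 682 and 646 CPM in Ctrl cells. All DACTPL and DAC libraries lay above the Ctrl libraries in both, and TPL replicate 3 lay among the Ctrl libraries in the H4 sum. The ratio of group means to Ctrl lay between 1.14 and 1.23 over the 5 classes in DACTPL cells, between 1.17 and 1.28 in DAC cells and between 1.13 and 1.28 in TPL cells.

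On the deposited TPM scale the same class ratios were 1.003 to 1.10 in DACTPL cells and 1.11 to 1.18 in DAC cells, and in TPL cells they turned below 1, at 0.857 to 0.974. TPM divides reads by length and by the total of all genes, and on this scale the median of all tested genes was itself shifted, by -0.11 in DACTPL cells, -0.08 in DAC cells and -0.29 in TPL cells. Relative to that shift the member medians were 0.21 in DACTPL cells, 0.33 in DAC cells and 0.13 in TPL cells. Per length, H2A made up the largest share of histone RNA, at 29.9% ± 0.400 of member TPM in DACTPL cells, 29.4% ± 0.263 in DAC cells, 29.7% ± 0.555 in TPL cells and 28.98% ± 0.170 in Ctrl cells (SD, n = 3 each). H1 made up 12.02% ± 0.321, 11.5% ± 0.404, 11.6% ± 0.788 and 11.6% ± 0.289 in DACTPL, DAC, TPL and Ctrl cells, values that overlap within their spread.

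**Figure D4:**
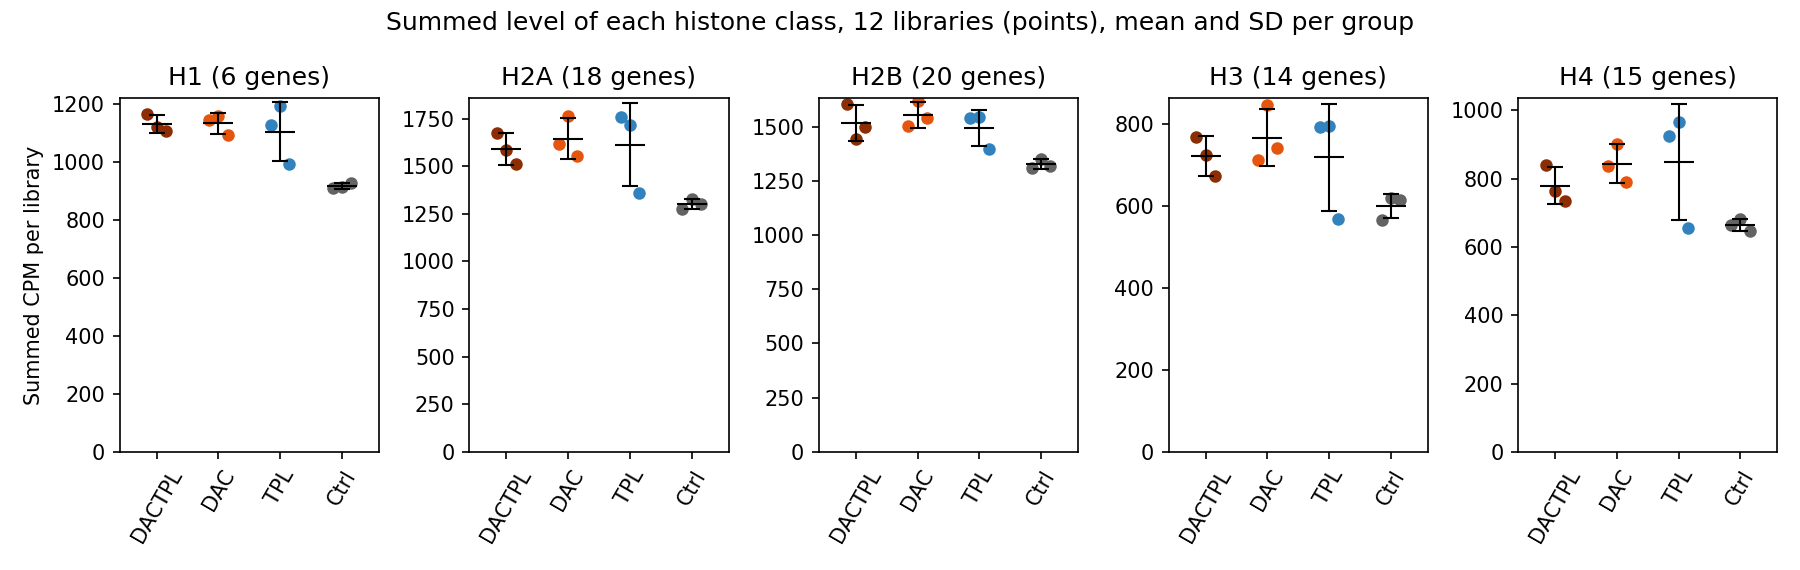
Summed CPM (y axis, from 0) of all members of each histone class in each library (points), with the mean and SD of each group of 3. Ctrl libraries lie below all DACTPL and DAC libraries in each class, and 1 TPL library, replicate 3, lies below the other 2.

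Histone transcripts are among the shortest that cells make, and the libraries differed in how short transcripts were represented. Effective length, taken from the ratio of expected count to TPM, had a median over members of 10.5% of that of the median coding gene, with a range of 6.60% to 70.9%. A smooth trend of expression on length was fitted in each library over 12732 other coding genes and read off at each member's length. Only 39 of those genes were as short as the median member, and 15 were no longer than the longest H4 gene, so the trend rests on few genes at these lengths.

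At the members' lengths, the trend against Ctrl had a median of 0.09 in DACTPL cells, 0.18 in DAC cells and 0.24 in TPL cells on the log2 scale. Members exceeded it in 58 of 62 cases in DACTPL cells, in 57 of 62 in DAC cells and in 35 of 62 in TPL cells. By library, the median deviation of the members from Ctrl beyond the trend was 0.18, 0.25 and 0.14 in DACTPL cells, 0.12, 0.19 and 0.21 in DAC cells, 0.04, 0.02 and -0.07 in TPL cells, and between -0.01 and 0.01 in Ctrl cells. The 6 decitabine-treated libraries thus lay above the other 6. For H1 alone the values ran from 0.54 to 0.67 in DACTPL cells, from 0.37 to 0.49 in DAC cells, from -0.06 to 0.13 in TPL cells and from -0.06 to 0.03 in Ctrl cells. The H1 values include HIST1H1A and HIST1H1T, which passed the filter only through decitabine-treated libraries, so they are a description. For H2B the values ran from 0.09 to 0.19 in DACTPL cells, from 0.03 to 0.20 in DAC cells, from -0.13 to -0.08 in TPL cells and from -0.01 to 0.02 in Ctrl cells.

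**Figure D5:**
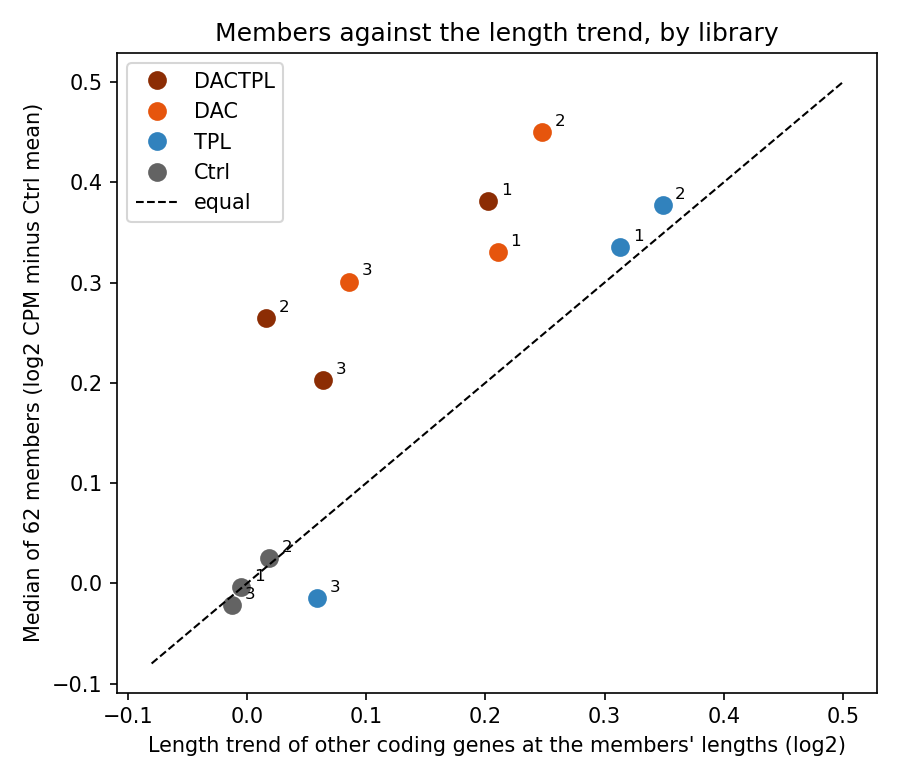
Median log2 deviation of the 62 tested members from the Ctrl mean (y axis) against the length trend of other coding genes at the same lengths (x axis) in each of the 12 libraries, labelled by replicate; the dashed line marks equality. All DACTPL and DAC libraries lie above the line, by 0.12 to 0.25, while TPL and Ctrl libraries lie within 0.07 of it.

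With the trend removed in the count model, 25 members were called higher in DACTPL cells, 19 in DAC cells and 1, HIST1H1B, in TPL cells, beside 9.43%, 5.82% and 0.497% of all genes. No member was lower in these fits, against 6.43%, 4.13% and 0.359% of all genes. The medians of the 62 became 0.18, 0.18 and 0.01. In DACTPL and DAC cells H1 had the highest class median, at 0.61 and 0.45, or 0.33 and 0.22 without HIST1H1A and HIST1H1T. In TPL cells its median was -0.02, below that of H2A (0.07). By class, the called members were 6 of 6 H1, 7 of 16 H2A, 6 of 17 H2B, 3 of 10 H3 and 3 of 13 H4 genes in DACTPL cells. In DAC cells they were 4 of 6, 4 of 16, 5 of 17, 3 of 10 and 3 of 13. In DACTPL against TPL cells the fit with the trend removed called 20 members higher, beside 7.31% of all genes, and none lower, beside 4.08%. Without the 5 members that passed the filter only through decitabine-treated libraries, the counts with the trend removed were 21 in DACTPL and 15 in DAC cells against Ctrl cells. In DACTPL against TPL cells the count was 16. By class, 4 of 4 H1, 3 of 9 H3 and 1 of 11 H4 genes were then called in DACTPL against Ctrl cells. In DAC cells these were 2 of 4, 3 of 9 and 1 of 11, and the H2A and H2B counts did not change.

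Triptolide alone gave 7 calls of 62, all higher, beside 1.68% of all genes higher and 0.787% lower. These were HIST1H1B, HIST1H1C, HIST1H2AK, HIST2H2AA3, HIST2H2AA4, HIST2H2AC and HIST4H4. HIST4H4, an H4 gene outside the main clusters, had 36.7, 34.4 and 35.2 CPM in DACTPL cells, 38.5, 38.5 and 34.6 CPM in DAC cells, 41.2, 45.6 and 38.0 CPM in TPL cells and 31.5, 31.8 and 31.6 CPM in Ctrl cells. Its TPL libraries lay above the Ctrl libraries, and its log2 fold change was 0.40 ± 0.07 (adjusted p = 0.0173, edgeR). In 15 members every TPL library lay above every Ctrl library and in 1, HIST1H2BE, below, against 11.3% and 11.1% of all genes. The median over all members was 0.23, beside a trend of 0.24. No member was called in every fit that left out 1 library. There were 0 calls without Ctrl replicate 1, Ctrl replicate 2, TPL replicate 1 or TPL replicate 2. Without TPL replicate 3 there were 38, all higher, beside 647 of 16080 genes higher. TPL replicate 3 had a median member deviation of -0.01, against 0.34 and 0.38 in the other 2 TPL libraries, and its trend was 0.06, against 0.31 and 0.35. On the log2(TPM + 1) scale limma called 1 member higher and 19 lower in TPL cells, beside 49 and 10782 of all 15890 genes.

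Adding triptolide to decitabine left no member called either way, with 0.0189% of all genes higher and 0.0126% lower in DACTPL than in DAC cells. At an unadjusted p below 0.05 there was no member higher and 2 lower, HIST1H2BI and HIST1H2BL, and DESeq2 called none. With the length trend removed no member was called either, beside 0.0315% of all genes higher and 0.0252% lower. Every DACTPL library lay above every DAC library in 1 member and below in 5, against 9.52% and 10.3% of all genes. The member median was -0.09, beside a trend of -0.08. The difference was 0.49 (95% interval -0.15 to 1.14) for HIST1H1A, 0.32 (95% interval -0.27 to 0.91) for HIST1H4E and 0.12 (95% interval -0.34 to 0.58) for HIST1H1T. For HIST1H1D it was 0.08 (95% interval -0.08 to 0.24), and the intervals of these 4 genes include 0.

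Members known also as polyadenylated transcripts were compared with the rest as a list of 10 genes. In DACTPL cells 4 of the 10 were called, with a median of 0.21, and 18 of 51 members outside this list and the germline list, with a median of 0.29. In DAC cells the counts were 2 of 10, with a median of 0.24, and 25 of 51, with a median of 0.37. The 51 include HIST1H1A, HIST1H3J, HIST1H4E and HIST1H4I, which passed the filter only through decitabine-treated libraries. All of these but HIST1H3J were called in both comparisons. HIST2H2AA3 is in the list, while its copy HIST2H2AA4, with the same counts, is among the 51 and was also called in both. The difference between the list and the rest was not tested. With the length trend removed the list had 3 calls in DACTPL cells and none in DAC cells.

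Lists of genes outside the clusters that act with histones were read against the shares over all genes given above. Of 12 replication-independent variants, 2 were higher in DACTPL cells (all genes 8.64%) and 1 in DAC cells (6.27%), with medians of 0.01 and 0.05, and 3 were lower in DACTPL than in TPL cells (3.59%). H2AFX, whose protein marks DNA breaks when phosphorylated, was higher in both (DACTPL 0.33 ± 0.09, adjusted p = 0.0254; DAC 0.30 ± 0.09, adjusted p = 0.0437; edgeR), though with the length trend removed the DAC call was lost (adjusted p = 0.107). H1FX, a linker histone variant, was higher in DACTPL cells (0.35 ± 0.09, adjusted p = 0.0179). The 3 variants lower in DACTPL than in TPL cells were H2AFJ, H3F3B and H3F3C, at -0.32, -0.23 and -0.37, and the H3F3C call was lost with the trend removed (adjusted p = 0.117).

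Of 24 genes for histone transcription and transcript processing, SLBP and NPAT among them, none was called in DAC or TPL cells. An unadjusted edgeR p below 0.05 was found for 3 of the 24 in DAC cells and 4 in TPL cells, beside 4122 and 3001 of all 15890 genes. In DACTPL cells LSM10, part of the processing complex, was higher (0.47 ± 0.13, adjusted p = 0.0278), and CPSF2, ERI1 and NCBP2 were lower (log2 fold changes of -0.22, -0.29 and -0.18). CPSF2 belongs to the machinery that cleaves histone transcripts, ERI1 trims their ends and NCBP2 binds the cap. With the length trend removed the LSM10 call was lost (adjusted p = 0.0887). Of 17 histone chaperones, SUPT16H was lower in DACTPL cells (-0.21 ± 0.05, adjusted p = 0.017) and CHAF1A in TPL cells (-0.26 ± 0.06, adjusted p = 0.0499), the CHAF1A call being lost with the trend removed (adjusted p = 0.084).

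DNA replication genes of S phase, the phase in which cluster histones are made, were also examined. Of 27 such genes, MCM3 was lower in DACTPL cells (-0.21 ± 0.06, adjusted p = 0.0271), FEN1 was higher in DAC cells (0.21 ± 0.06, adjusted p = 0.0482) and CLSPN was lower in TPL cells (-0.34 ± 0.06, adjusted p = 0.0213), and no other was called. With the length trend removed the FEN1 and CLSPN calls were lost (adjusted p = 0.0763 and 0.221). The list medians were -0.10, 0.03 and -0.08 in DACTPL, DAC and TPL cells. MCM3 is a subunit of the replicative helicase, FEN1 processes Okazaki fragments and CLSPN is a checkpoint mediator.

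Among members with an adjusted p in the authors' deposited tables, from DESeq2, 23 of 70 were listed as higher in DACTPL cells and 36 of 67 in DAC cells against Ctrl, and none as lower, beside 7.77% and 5.87% of all genes with an adjusted p. For TPL against Ctrl cells the authors' deposited table listed 13 of 57 members as higher, beside 3.94% of all genes. For DACTPL against TPL cells the authors' deposited table listed 10 of 68 as higher and 1 as lower, beside 6.26% of all genes higher. The authors' deposited z-score list of 704 genes, which they chose on these samples, held 17 members, HIST1H1A, HIST1H1T and HIST1H4E among them.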

How the data were processed

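RNA-seq of 12 DU145 libraries was analysed, 3 in each of the DACTPL, DAC, TPL and Ctrl groups, which were taken from the sample labels. The authors estimated the expected counts and TPM of each gene using RSEM 1.2.09, with hg19 as the build, per the submitters' processing notes. Which aligner and gene annotation they used is not given in the sources used here. Log2 fold changes and p-values in the deposited comparison tables were produced by the authors in DESeq2, and R 4.0.4 is named too, per the submitters' processing notes. Scores in the deposited z-score table were scaled by the authors over the samples for genes that they chose.

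Expected counts were rounded to whole numbers; 64.3% of them lay within 0.005 of one. Genes were filtered with filterByExpr, scaled by TMM and tested with the edgeR 4.0.16 quasi-likelihood test in R 4.3.3, with 1 fit over all 4 groups and Benjamini-Hochberg adjustment over 15890 genes, called at 0.05. The biological coefficient of variation was 9.03%. CPM is the rounded count per total of the library and its TMM factor. The length trend is a lowess curve (span 0.3) of log2 CPM deviations on log effective length, fitted per library or comparison over coding genes with a mean of 1 CPM or more and no member; where removed, it entered the model as an offset. Intervals of fold changes use the t distribution with the degrees of freedom of the edgeR fit. Alternatives were limma 3.58.1 on log2(TPM + 1) and log2(TPM + 0.1), DESeq2 1.42.0, other filters and scalings, a replicate block, and leaving out libraries. The edgeR fit and the removal of the length trend were run on simulated data for DAC against Ctrl cells. The 3 identical row pairs are HIST2H2AA3 and HIST2H2AA4, HIST2H3A and HIST2H3C, and HIST2H4A and HIST2H4B, whose reads cannot be assigned to 1 copy. Other members are close paralogs, and 59.8% of member values lay within 0.005 of a whole number.

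The members and lists were chosen with earlier results of these data known. Named genes were, per comparison and class, up to 2 called members with the largest fold change at 1 CPM or more, the 2 members with the highest mean CPM, and the germline members; others are marked as chosen after their values were seen or by position. Intervals and floors from counts (95%, exact; 3 counts per library) cover counting error only.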

Additional observations from a re-analysis of the deposited data

How the results depend on the processing

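The member median stayed above 0 in DACTPL and DAC cells against Ctrl under each alternative, but the number called moved. Leaving out replicate 3 of every group together with the length trend was chosen after seeing the data, and in these 2 comparisons it alone gave a member called lower, 1 in DACTPL cells. For DACTPL against Ctrl (23 called) the number was 15 with limma on log2(TPM + 1) and 15 on log2(TPM + 0.1), beside 4764 and 4643 of 15890 genes. With the compared groups only it was 35, beside 2539 of 15767 genes. Without replicate 3 of every group it was 39, beside 3815 of 15927 genes. Leaving out 1 library gave 17 to 22, beside 1146 to 2339 genes. For DAC against Ctrl (28) the same counts were 15, 15, 48 and 50. All-gene calls were 1839 and 1760 of 15890, 1818 of 15761 and 2806 of 15927. Leaving out 1 library gave 14 to 26, beside 753 to 1540 genes. For TPL against Ctrl (7) the counts were 4 without a filter, 4 with a stricter one, 13 with DESeq2 and 1 with the length trend removed. All-gene calls were 319 of 20523, 355 of 13925, 822 of 15885 and 136 of 15890. The compared groups only gave 0, beside 23 of 15340 genes. Without replicate 3 there were 37, beside 1865 of 15927 genes. Leaving out 1 library gave 0 to 38, beside 25 to 930 genes. Limma on TPM gave 20 and 22 for TPL against Ctrl, of which 19 and 21 were lower. Beside these, 10782 and 10855 of all 15890 genes were lower. For DACTPL against TPL (10) limma gave 27 and 28 and removing the trend 20, beside 5639, 5786 and 1810 of 15890 genes. Leaving out replicate 3 gave 21, of which 11 were lower, and both together 25, beside 3709 and 3473 of 15927 genes. Leaving out 1 library gave 8 to 24, beside 955 to 3285 genes. Leaving out the members that passed the filter only through decitabine-treated libraries, also chosen after seeing the data, gave 6. For DACTPL against DAC (0), leaving out replicate 3 gave 2, beside 2134 of 15927 genes. With the trend removed as well it gave 7, beside 2369 of 15927 genes. Leaving out 1 library gave 0. The interaction (0) had 1 call with DESeq2 and 1 with limma on log2(TPM + 0.1), beside 110 of 15885 and 5103 of 15890 genes. Leaving out 1 library gave 0 to 39, beside 0 to 950 genes. Without replicate 3 the interaction had 36, or 0 with the trend removed as well, beside 2049 and 675 of 15927 genes. The cause of these shifts was not tested. Libraries were not taken as paired by replicate number: of 18 same-numbered pairs 12 correlated above 0.1 (r from -0.19 to 0.52), among them all 6 pairs numbered 3, and 6 of 12 libraries correlated best with their own number. With a replicate block, 43 members were called for DAC and 17 for TPL, beside 2574 and 1288 of 15890 genes. With the trend removed as well, the replicate block gave 2 for TPL and 29 for DACTPL against TPL. Beside these, 918 and 2718 of 15890 genes were called. On the TPM scale TPL against Ctrl reversed for HIST1H1C (-0.14 with either pseudocount), HIST2H2AC (-0.044 with either) and HIST2H2AA4 (-0.24), and for the class sums, at ratios of 0.924 for H1, 0.948 for H2A, 0.857 for H2B, 0.912 for H3 and 0.974 for H4. The summed ratios in DACTPL cells became 1.099 for H1, 1.09 for H2A, 1.003 for H2B, 1.07 for H3 and 1.04 for H4, and in DAC cells 1.14 for H1, 1.17 for H2A, 1.11 for H2B and 1.18 for H4.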
